A study of Mus musculus with 28 samples.

Results

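The genes described here are the families that build the synaptic vesicle and its fusion machinery. They were taken by symbol, as the synaptotagmins (Syt), syntaxins (Stx), Vamp and Snap proteins, complexins (Cplx), Rims, Sv2, synapsins (Syn), synaptogyrins (Syngr), syntaxin-binding proteins (Stxbp), Unc13, Rab3 and synucleins (Snc), together with Syp, Synpr, Nsf, Bsn and Pclo. The rule reads symbols and no measured value, but it was chosen with earlier results of these data known. Of 13617 genes with a symbol of their own on the arrays, 71 met it. A further 4 genes, Stx3, Stxbp3, Vamp1 and Cplx3, shared a row with another gene and were left out. Snap91, a clathrin adaptor (AP180), was taken in by its symbol although it is no SNARE protein.

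Amacrine cells of the mouse retina were sorted by fluorescence, 200 cells and 1 retina a sample, and their RNA was measured on 28 arrays. Arc amacrine cells carried GFP from the transgene Tg(Arc-EGFP)194Gsat/Mmcd and gave 22 arrays, namely 21 that cover P1 to P20 day by day, P6 with 2, and 1 of P43. Starburst amacrine cells carried RFP from the reporter Rosa26-LSL-RFP, switched on by the Cre line 129S6-Chat_tm1(cre)Lowl/J, and gave 3 arrays at P3 and 3 at P18. Arc cells came from the F2 of FVB/N-Swiss Webster hybrids and C57BL/6J, and the hybrids carry a recessive mutation for photoreceptor degeneration. The labels give the starburst mice the same mixed background, whereas the growth protocol places lines other than the Arc line in C57BL/6J, and this was not resolved. RFP marks any cell in which Chat-cre was active at any earlier time, and GFP marks cells in which the Arc transgene was active. The batch label was B for every starburst array and named both A and B for every Arc array. Batch, line and fluorophore therefore cannot be told apart from cell type.

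A synaptic vesicle is filled, docked and primed at the active zone, and calcium entry makes it fuse within moments. Fusion is driven by SNARE proteins, Vamp2 on the vesicle and Snap25 with a syntaxin on the plasma membrane, which zip together. Synaptotagmins sense the calcium, complexins hold and release the SNARE bundle, Unc13 and Rim proteins prime the vesicle, and the ATPase Nsf takes spent SNARE complexes apart. Amacrine cells are inhibitory interneurons of the inner retina that release GABA or glycine at conventional synapses. Starburst amacrine cells also release acetylcholine. Photoreceptors and bipolar cells use ribbon synapses with some release proteins of their own.

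Values are log2 expression as deposited, and 1 unit is a 2-fold difference. Levels depend on each gene's probes and are compared between samples and not between genes. Olfactory receptor genes, which these cells are not known to use, served as a background set. The 95th percentile of 704 such genes was 3.47 in Arc and 3.92 in starburst arrays. A gene with a group mean below this is called at background. By that measure 56 of the 71 genes stood above background in Arc arrays of P2 to P4, 58 in those of P17 to P19, 45 in starburst arrays of P3 and 46 in those of P18. In all 4 of these groups 41 genes were above background and 12 were at background. The 12 included Cplx4 and Sv2b, release proteins of ribbon synapses, Vamp8, a SNARE of endosomes and secretory granules, Unc13d, a priming protein of blood cells, and Stx19, Rab3d and Syt2.

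The labels were checked against genes of the sorting lines. Arc lay between 5.33 and 6.15 in Arc arrays and between 3.96 and 5.21 in starburst arrays. Chat, which makes acetylcholine, lay between 4.88 and 5.67 at P3 and between 6.80 and 7.41 at P18 in starburst arrays, and was at background in Arc arrays. Starburst replicates correlated across genes with r between 0.950 and 0.966, and both P6 arrays with r = 0.974. The P1 array stood apart, with a median r of 0.939 with the other Arc arrays to P20, against 0.955 to 0.977 for those arrays.

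For orientation, the start-site sequences of the genes that mark the main patterns are shown first. These are the 250 bases before the annotated start of Nsf, Sv2a and Syp, which had the largest rises in Arc cells among genes with 1 annotated start and a sequence in the table used, and of Syt10 and Rims1, which had the extreme differences between the cell types at P18 in each direction among those genes. The sequences are those of RefSeq on GRCm38.p6, 5′ to 3′ in the direction of the gene. Capitals mark matches, on either strand, to 4 short motifs. The GC box, bound by Sp-family factors, was searched as GGGCGG. For the E-box the letters were CACGTG. The core of the cAMP response element was searched as TGACG, and for the TATA box of some core promoters the letters were TATAAA. No motif of this set overlaps another in these windows.
Nsf, chr11:103954057-103954306, minus strand: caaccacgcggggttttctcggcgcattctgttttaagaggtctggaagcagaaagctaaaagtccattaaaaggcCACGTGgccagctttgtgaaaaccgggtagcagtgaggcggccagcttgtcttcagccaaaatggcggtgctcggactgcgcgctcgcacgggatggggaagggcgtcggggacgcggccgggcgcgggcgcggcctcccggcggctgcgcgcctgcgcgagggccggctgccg
Sv2a, chr3:96180977-96181226, plus strand: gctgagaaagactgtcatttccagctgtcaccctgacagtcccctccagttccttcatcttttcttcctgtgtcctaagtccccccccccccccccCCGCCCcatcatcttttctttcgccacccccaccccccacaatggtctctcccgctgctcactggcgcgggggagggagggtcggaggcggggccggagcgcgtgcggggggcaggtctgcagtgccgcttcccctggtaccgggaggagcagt
Syp, chrX:7638330-7638579, plus strand: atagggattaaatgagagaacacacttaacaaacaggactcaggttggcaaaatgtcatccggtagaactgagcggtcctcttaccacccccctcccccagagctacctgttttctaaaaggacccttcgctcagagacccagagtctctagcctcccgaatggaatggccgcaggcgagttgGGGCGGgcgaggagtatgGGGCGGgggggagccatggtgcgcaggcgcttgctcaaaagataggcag
Syt10, chr15:89841861-89842110, minus strand: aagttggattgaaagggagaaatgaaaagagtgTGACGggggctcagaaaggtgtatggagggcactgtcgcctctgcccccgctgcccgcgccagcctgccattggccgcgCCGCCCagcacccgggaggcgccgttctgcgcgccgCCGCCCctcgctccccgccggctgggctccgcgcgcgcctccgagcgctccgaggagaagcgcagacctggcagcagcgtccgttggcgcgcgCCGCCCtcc
Rims1, chr1:22806159-22806408, minus strand: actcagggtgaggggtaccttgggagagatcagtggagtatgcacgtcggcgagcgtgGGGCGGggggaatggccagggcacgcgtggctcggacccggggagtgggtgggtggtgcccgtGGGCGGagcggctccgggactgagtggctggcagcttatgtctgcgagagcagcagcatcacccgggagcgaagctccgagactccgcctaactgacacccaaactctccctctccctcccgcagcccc

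The Nsf window held 1 E-box and no GC box, whereas Sv2a had 1 GC box, Syp and Rims1 had 2 each and Syt10 had 3 and a TGACG. Syt10 and Rims1 thus both had GC boxes, and any link to their differences between the cell types was not tested. RefSeq windows were matched by symbol for 55 of the 71 genes. A GC box was in a window of 40 of the 55 (72.7%), against 53.6% of 10883 genes of the array with a window and 35.4% of all 27025 genes in the table. The E-box was found in 8 of the 55 (14.5%, against 8.73% of the array genes), TGACG in 15 (27.3% against 25.4%) and the TATA box in 3 (5.45% against 12.2%). These matches describe the letters of the windows.

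The age series asks how the release machinery of Arc cells changes during the first postnatal weeks. All 3 synapsins, several vesicle membrane proteins and the fusion proteins Snap25, Vamp2 and Nsf rose between P1 and P20. Synpr, synaptoporin of the vesicle membrane, rose 16.3-fold on the fitted line, Syn2, a synapsin that tethers vesicles, 7.75-fold, Nsf 7.25-fold and Snap25 6.11-fold. Of the 71 genes, 33 were higher with age (46.5%, against a background of 14.7% of all genes) and 11 were lower (15.5% against 23%). By at least 2-fold, 22 were higher and 1 was lower, against 5.07% and 2.19% of all genes. The median fitted change of the 71 genes was 0.29 on the log2 scale, whereas that of all genes was -0.13. With each array centred on its own median the median of all genes was -0.02, and 37 of the 71 genes were higher and 5 lower. In 17 genes all 7 arrays of P14 to P20 lay above all 7 of P1 to P6, and in 1 gene, Syt6, all lay below, against 5.67% and 3.14% of all genes. Because these are bulk samples of sorted cells, fewer cells that express a gene and less of its RNA in each cell cannot be told apart. The p-values set a change against the spread of these arrays around a line or a group mean. In the comparisons between cell types the Arc groups hold neighbouring days, so their spread and SD include change with age.

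**Figure D1:**
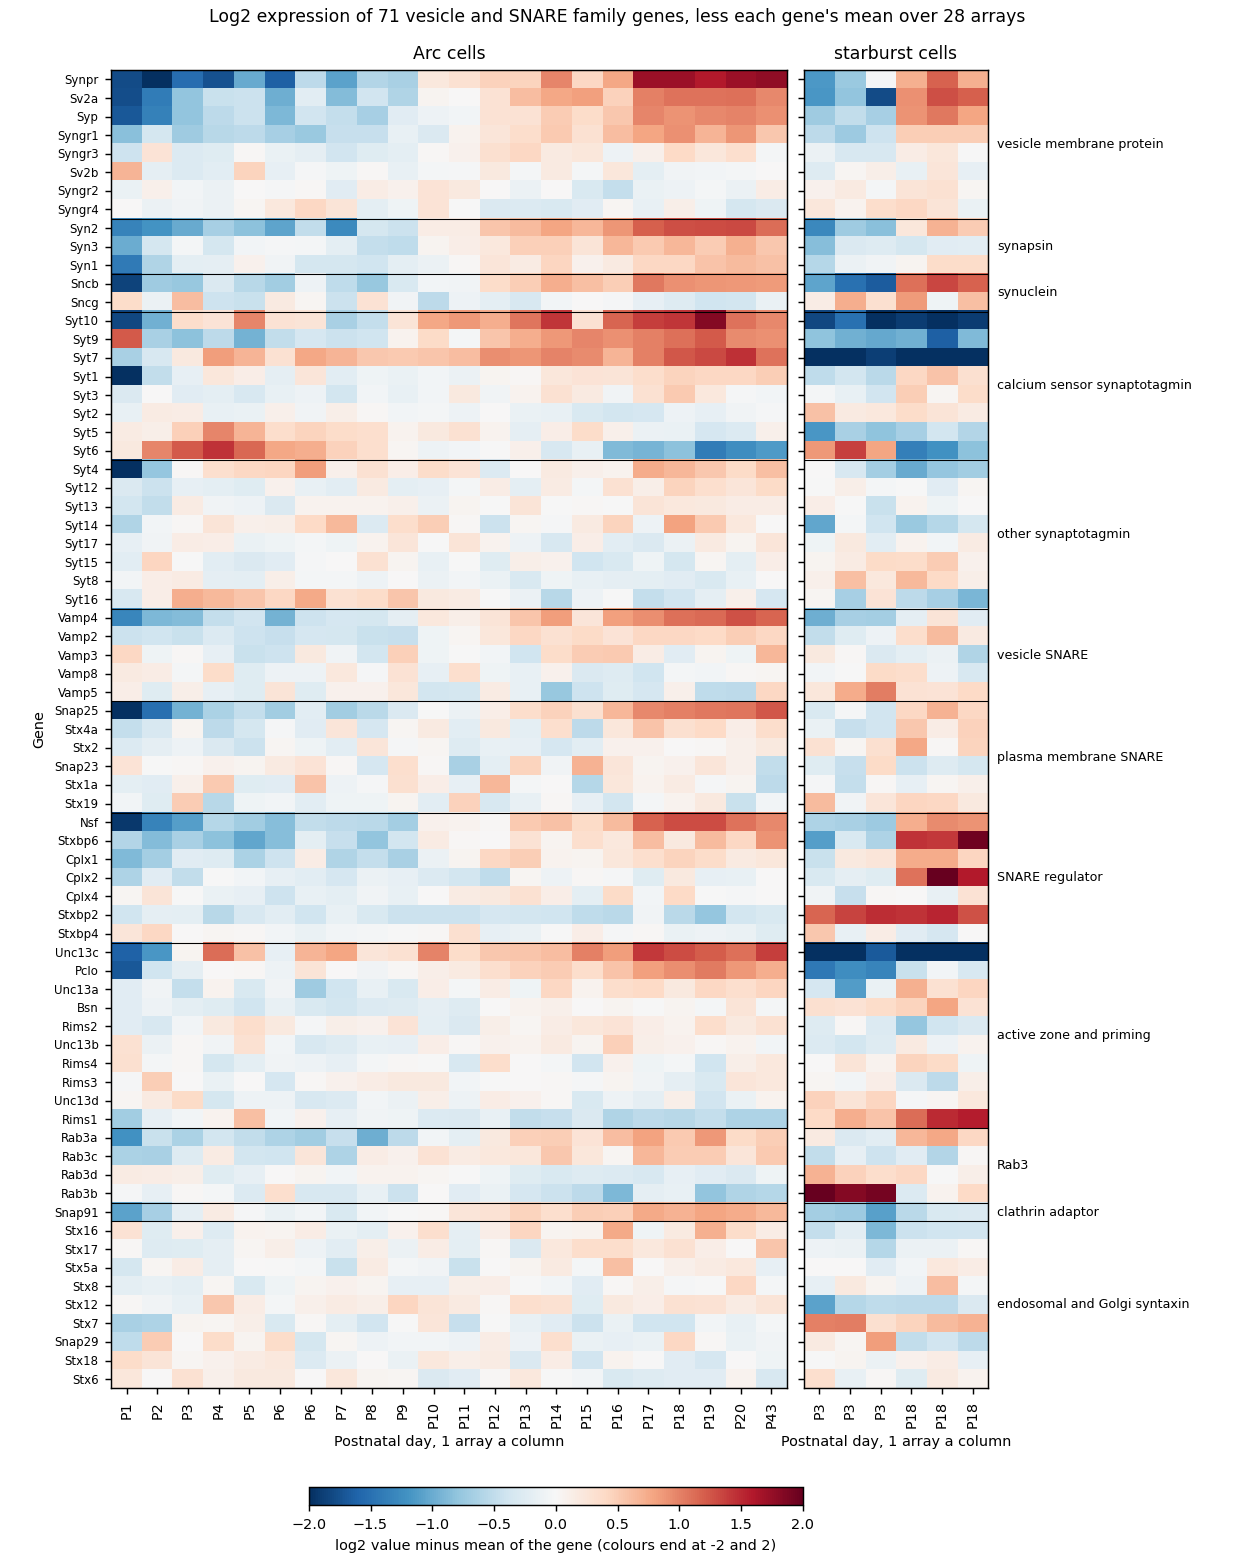
Log2 expression of the 71 genes in every array, less each gene's mean over the 28 arrays, with Arc cells by day on the left and starburst cells on the right and genes grouped by role; blue is below and red above the gene's mean, and colours end at -2 and 2. Vesicle membrane proteins, synapsins, Snap25, Vamp4 and Nsf pass from blue to red with age in Arc cells, Syt6 passes from red to blue in both cell types, and Syt7, Syt10 and Unc13c are blue in all 6 starburst arrays.

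Among the 8 vesicle membrane proteins, 5 rose in Arc cells and none fell. Synpr had 3.25, 3.91 and 5.01 as lowest, median and highest value of the 7 arrays of P1 to P6, 4.46, 5.74 and 6.00 at P7 to P13, and 5.94, 7.11 and 7.25 at P14 to P20. It started near background and the early and late arrays did not overlap. The fitted change was 4.03 ± 0.23 (SE, 21 arrays) at adjusted p = 1.67e-12. Sv2a, the vesicle glycoprotein that binds levetiracetam, had 4.50, 5.48 and 6.07 early and 6.74, 7.28 and 7.38 late. Its change was 2.65 ± 0.20 (SE) at adjusted p = 2.09e-10. Syp, synaptophysin, had 5.79, 6.69 and 7.10 early and 7.86, 8.38 and 8.48 late, a change of 2.40 ± 0.15 (SE) at adjusted p = 1.32e-11. For both genes every late array was above every early one. Syngr1 rose by 1.84 and Syngr3 by 0.57, while Syngr2, Syngr4 and Sv2b had changes between -0.23 and -0.09 that did not pass, Syngr4 and Sv2b at background.

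All 3 synapsins, phosphoproteins that hold the reserve pool of vesicles, rose. Syn2 had 4.39, 4.72 and 5.24 early, 4.45, 5.88 and 6.37 in the middle days and 6.39, 6.92 and 7.05 late, a change of 2.95 ± 0.18 (SE) at adjusted p = 4.52e-12. At P7 Syn2 was still at 4.45. Syn3 rose by 1.28 and Syn1 by 1.26. Sncb, beta-synuclein of the presynaptic terminal, had 5.12, 6.29 and 6.87 early and 7.47, 7.85 and 8.03 late and rose by 2.25 ± 0.20 (SE) at adjusted p = 4.52e-09. Sncg, gamma-synuclein, was at -0.38 and did not pass.

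The SNARE proteins were divided. Snap25, the plasma membrane SNARE of neurons, had 7.32, 8.61 and 9.10 early and 9.63, 10.27 and 10.39 late, with no overlap, and rose by 2.61 ± 0.17 (SE) at adjusted p = 1.32e-11. Vamp4, a SNARE of the trans-Golgi and endosomes, had 5.40, 5.84 and 6.33 early and 6.96, 7.64 and 7.98 late and rose by 2.41 ± 0.14 (SE) at adjusted p = 3.94e-12. Vamp2, the main vesicle SNARE, stayed between 6.52 and 6.70 until P9 and lay between 7.26 and 7.47 from P14 to P20. Its change was 1.14 ± 0.12 (SE) at adjusted p = 5.07e-08. Vamp5, a SNARE best known from muscle, fell by 0.45 on the fitted line, at adjusted p = 0.0479. That call was lost under 19 of 30 alternatives, 13 of them with a single array left out, and the change was -0.0878 with the gene's row of lowest mean. Of the 6 plasma membrane SNAREs only Snap25 and Stx4a passed, Stx4a with 0.65, and Stx1a, the neuronal syntaxin, was at 0.03 ± 0.21 (SE). Of the 9 syntaxins and related proteins of endosomes and the Golgi, 2 were higher (Stx16 and Stx17) and 2 lower (Stx6 and Stx18), all by less than 0.5 on the log2 scale. The calls of Stx16 and Stx18 were lost under 12 and 14 of 30 alternatives.

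Of the 7 SNARE regulators 3 rose. Nsf had 4.98, 6.06 and 6.43 early and 7.30, 7.99 and 8.22 late and rose by 2.86 ± 0.17 (SE) at adjusted p = 3.57e-12. Stxbp6, amisyn, a syntaxin-binding protein that can take the place of Vamp2 in the bundle, had 3.38, 3.59 and 4.22 early and 4.47, 4.75 and 5.05 late, a change of 1.54 ± 0.17 (SE) at adjusted p = 1.38e-07. Cplx1, a complexin, rose by 1.11 ± 0.18 (SE), with overlap between the early and late arrays. Cplx2, its close relative, lay between 4.47 and 5.29 on all days and its change of 0.29 ± 0.13 (SE) did not pass. Stxbp2, Munc18-2, was near background throughout.

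**Figure D2:**
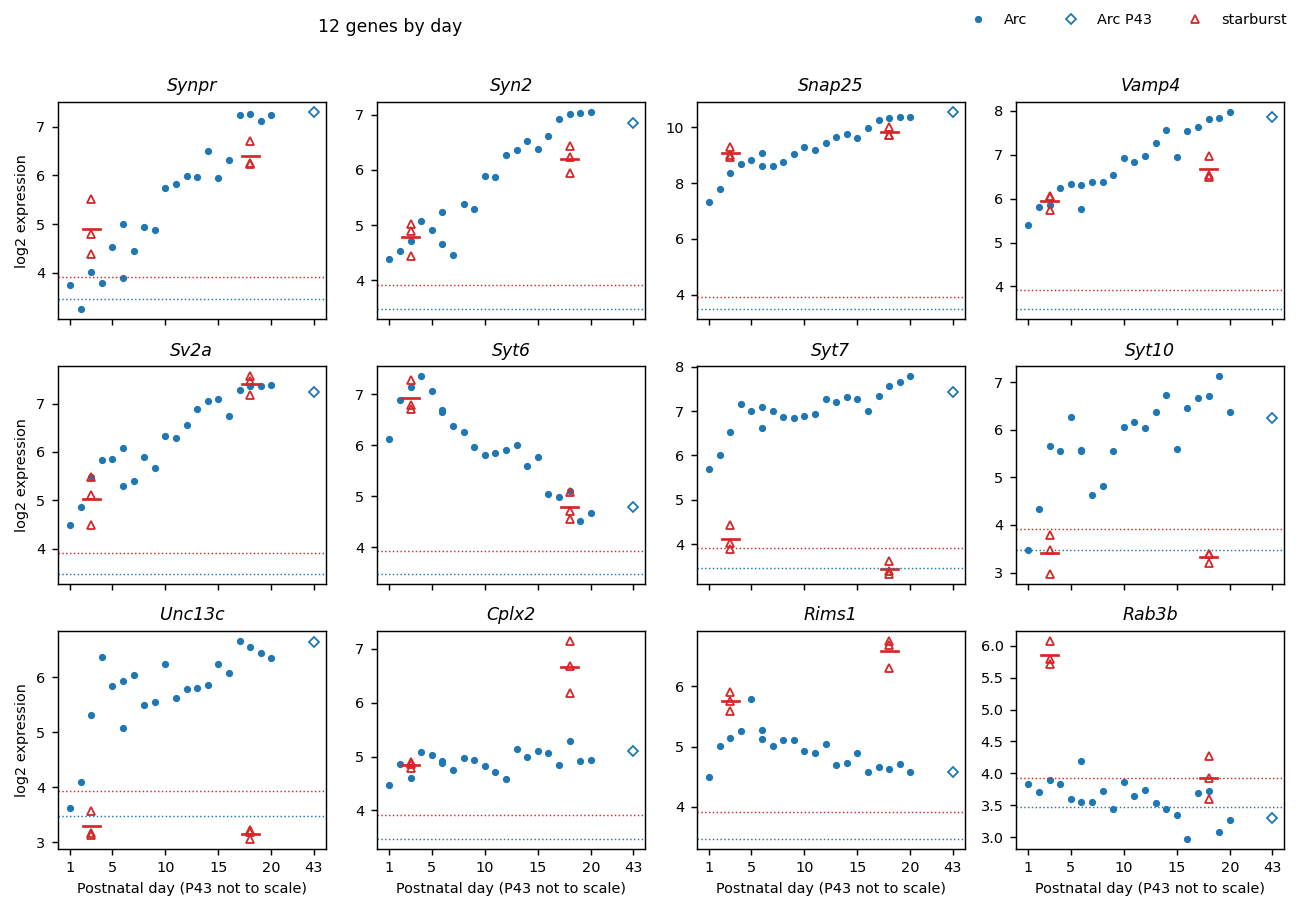
Log2 expression of 12 genes against postnatal day, with Arc arrays as filled points, the P43 array as an open diamond (not to scale), starburst arrays as triangles and their means as bars; dotted lines are the background levels of 3.47 (Arc) and 3.92 (starburst). Every array of P14 to P20 is above every array of P1 to P6 for Synpr, Syn2, Snap25, Vamp4 and Sv2a. Syt6 falls from P4, and Syt7, Syt10 and Unc13c have starburst values well below all but the earliest Arc days.

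Synaptotagmins moved in both directions. Among the 8 calcium-sensing members 5 rose and 3 fell in Arc cells, and among the 8 others 3 rose and 2 fell. Syt1, the main sensor of fast release, was at 8.05 at P1 and between 9.57 and 10.50 on every later day to P20, and its change of 1.10 ± 0.27 (SE) became 0.64 without the P1 array. Syt10, a sensor known from secretion of growth factors in olfactory bulb neurons, had 3.48, 5.56 and 6.28 early and 5.60, 6.68 and 7.13 late and rose by 2.24 ± 0.38 (SE) at adjusted p = 6.34e-05. Syt7, the high-affinity sensor of asynchronous release and facilitation, had 5.69, 6.63 and 7.16 early and 7.01, 7.33 and 7.78 late, a change of 1.33 ± 0.20 (SE) at adjusted p = 1.04e-05. For Syt10 and Syt7 the early and late arrays overlapped. A fit to P3 to P20 alone gave them 1.61 and 0.93, expressed over P1 to P20. Syt9, another calcium sensor, was at 6.30 at P1 alone, between 4.12 and 4.73 at P2 to P6 and between 5.94 and 6.30 late. Its change was 1.80 ± 0.34 (SE) at adjusted p = 0.000216, and 2.38 without P1. Syt4, a member that does not bind calcium in the usual way, had a change of 0.95 at adjusted p = 0.0433 that fell to 0.41 at adjusted p = 0.203 without P1.

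Syt6 had the strongest fall of the 71 genes along the Arc series. It was at 6.12 at P1 and 7.36 at P4 and then stood at 5.82 to 6.38 at P7 to P13 and 4.51 to 5.77 at P14 to P20. All late arrays lay below all early ones, and the fitted change was -2.40 ± 0.24 (SE) at adjusted p = 1.69e-08, a 5.27-fold fall. Syt16, a member without calcium-binding residues, fell by 0.77 on the fitted line and Syt5 fell by 0.73, with late values of Syt5 between 4.23 and 4.92. Syt8 and Syt2 had called changes of -0.27 and -0.26, Syt2 at background on every day. With P1 to P16 alone Syt6 kept its call. Syt16, Syt5, Syt8 and Syt2 lost theirs there, at adjusted p = 0.12, 0.166, 0.177 and 0.0792. With P3 to P20 alone Syt16, Syt5 and Syt2 passed and Syt8 did not, at adjusted p = 0.0502.

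At the active zone 4 of 10 genes rose and 1 fell in Arc cells. Unc13c, the priming protein Munc13-3 known from cerebellar granule cells, had 3.62, 5.31 and 6.37 early and 5.86, 6.35 and 6.66 late, a change of 1.76 ± 0.36 (SE) at adjusted p = 0.000483. Unc13c was already at 6.37 at P4, within the range of the late arrays. A fit to P3 to P20 alone gave it 0.96, expressed over P1 to P20. Pclo, piccolo, a scaffold of the active zone, was at 5.50 at P1, had a median of 7.09 early and 8.02 late, and rose by 1.62 ± 0.21 (SE), or 1.28 without P1. Unc13a, Munc13-1, rose by 0.77 and Bsn, bassoon, by 0.43. Rims1, which links calcium channels and vesicles, had 4.49, 5.14 and 5.79 early and 4.57, 4.66 and 4.89 late and fell by 0.58 ± 0.18 (SE) at adjusted p = 0.0138. The call was lost with each array centred on its median, with P1 to P16 alone and with log2 of the day, where the highest adjusted p was 0.233. Fits to 2 ranges chosen after seeing the data, expressed over P1 to P20, differed in sign. P3 to P20 gave Rims1 -0.91 at adjusted p = 4.04e-05, and P1 to P9 gave 0.79 at adjusted p = 0.822. Rims2, Rims3, Rims4, Unc13b and Unc13d did not pass.

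Of the 4 Rab3 GTPases, vesicle proteins that bind Rim, Rab3a rose by 1.76 ± 0.19 (SE) at adjusted p = 1.02e-07 and Rab3c by 1.00. Rab3a had 4.69, 5.28 and 5.53 early and 6.18, 6.43 and 6.76 late, with no overlap. Rab3b fell by 0.57 and Rab3d fell by 0.40, both near or at background. Snap91 rose by 1.40 ± 0.15 (SE) and did not overlap between early and late arrays.

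The last array, P43, gives the adult level in 1 sample. Of the 71 genes 21 were above all arrays of P17 to P20 at P43, 21 were below and 29 lay within their range, against 28.2% of all genes above and 21.1% below. Snap25 was at 10.56 against 10.27 to 10.39 at P17 to P20, and Synpr at 7.31 against 7.11 to 7.25. Nsf was at 7.87 against 7.99 to 8.22, Syp at 8.41 against 8.38 to 8.48 and Syt6 at 4.79 against 4.51 to 5.10. Syp and Syt6 thus lay within the range of the last days, and with 1 array no test was made.

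For starburst cells the question of change with age rests on P18 against P3. Several vesicle and fusion genes were higher at P18 in these cells too. Of the 71 genes 18 were higher (25.4%, against a background of 4.76% of all genes) and 2 were lower (2.82% against 3.89%). By at least 2-fold, 11 were higher (15.5% against 2.7%) and 2 were lower (2.82% against 1.74%). The largest rises were in Sncb (6.09-fold), Sv2a (5.21-fold), Stxbp6 (at least 2.10 on the log2 scale above background) and Cplx2 (3.53-fold). The largest falls were in Syt6 (4.43-fold) and Rab3b (3.8-fold). The median difference was 0.13 for the 71 genes and -0.06 for all genes.

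Sncb had 5.93, 5.49 and 5.32 at P3 and 8.08, 8.32 and 8.16 at P18, a difference of 2.61 ± 0.18 (SE, 3 and 3 arrays) at adjusted p = 5.04e-05. The P18 arrays were all higher by more than 2 units. Sv2a had 5.11, 5.49 and 4.48 at P3 and 7.18, 7.57 and 7.47 at P18, a difference of 2.38 ± 0.25 (SE) at adjusted p = 0.000432. Stxbp6 had 3.31, 4.11 and 3.80 at P3, a mean at background, and 5.86, 5.83 and 6.36 at P18. Its measured difference was 2.28 ± 0.24 (SE) at adjusted p = 0.000432. Cplx2 had 4.78, 4.91 and 4.85 at P3 and 6.18, 7.15 and 6.68 at P18, a difference of 1.82 ± 0.23 (SE) at adjusted p = 0.00128. It was the only gene called in starburst cells and not along the Arc series.

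Genes with the largest rises along the Arc series were also higher at P18 in starburst cells, over a shorter span of days. Synpr had 4.38, 4.79 and 5.52 at P3 and 6.25, 6.71 and 6.24 at P18, a difference of 1.50 ± 0.28 (SE) at adjusted p = 0.00997. Syp differed by 1.53 ± 0.14 (SE) and Nsf by 1.52 ± 0.14 (SE), with adjusted p = 0.000231 and 0.0002. Syn2 was higher by 1.42, Pclo by 1.06, Syngr1 by 1.05, Unc13a by 1.02 and Syt1 by 0.90. Snap25 had 9.01, 9.30 and 8.94 at P3 and 9.73, 10.01 and 9.73 at P18, a difference of 0.74 ± 0.15 (SE) at adjusted p = 0.0146. Smaller called differences were those of Rims1 (0.83), Rab3a (0.72), Vamp4 (0.72), Stx4a (at least 0.54, since P3 was at background) and Vamp2 (0.67). For Rab3a, Rims1, Snap25, Stx4a, Unc13a, Vamp2 and Vamp4 the call was lost in at least 1 other setting or when an array was left out.

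Syt6 had 6.78, 7.29 and 6.71 at P3 and 4.55, 4.70 and 5.09 at P18, a difference of -2.15 ± 0.21 (SE) at adjusted p = 0.000327. Rab3b, a GTPase of vesicles, had 6.08, 5.71 and 5.79 at P3 and 3.60, 3.93 and 4.27 at P18, close to background, a difference of -1.92 ± 0.20 (SE) at adjusted p = 0.000456. Neither gene overlapped between the days. None of the 9 endosomal and Golgi syntaxins passed. In 24 of the 71 genes all P18 arrays lay above all P3 arrays and in 7 all lay below, against 11.3% and 15.7% of all genes.

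**Figure D3:**
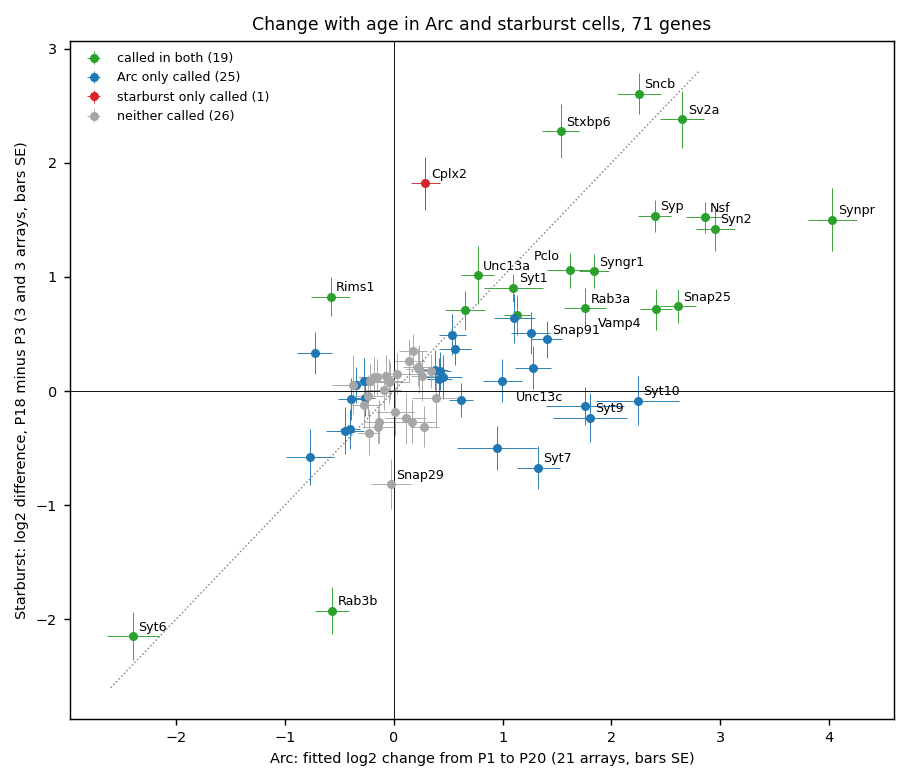
Fitted log2 change between P1 and P20 in Arc cells (horizontal, 21 arrays) against the log2 difference of P18 and P3 in starburst cells (vertical, 3 and 3 arrays) for the 71 genes, with bars for the SE and a dotted line of equal values; the spans of days differ. Green marks the 19 genes called in both, blue the 25 called in Arc alone, red Cplx2, called in starburst alone, and grey the 26 called in neither; Synpr, Nsf, Syn2 and Snap25 lie below the line and Sncb and Stxbp6 above it.

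The 2 cell types share no arrays, so their calls were set side by side. Of the 71 genes 16 were higher with age in both (22.5%, against 3.36% of all genes), 2 were lower in both (2.82% against 2.51%) and 1, Rims1, was lower in Arc and higher in starburst cells (1.41% against 0.463%), with its Arc call lost in other settings and its starburst call lost when 1 of 4 single arrays was left out. The 2 that were lower in both were Syt6 and Rab3b. A further 25 genes were called along the Arc series alone, where 21 arrays entered the fit against 6 in starburst cells, so a missing call there does not show that starburst cells did not change.

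Whether the changes differed was tested directly, with starburst P18 minus P3 set against Arc P17 to P19 minus P2 to P4. Of the 71 genes 10 differed, 3 with a more positive change in starburst cells (4.23%, against 1.67% of all genes) and 7 with a more negative one (9.86% against 2.36%). Cplx2 went from 4.85 to 6.67 in starburst cells and from 4.84 to 5.02 in Arc cells, a difference between the changes of 1.65 ± 0.31 (SE) at adjusted p = 0.00721. Rims1 went up from 5.75 to 6.58 in starburst cells and down from 5.13 to 4.67 in Arc cells, a difference of 1.30 ± 0.21 (SE) at adjusted p = 0.0024. Synpr went from 4.90 to 6.40 in starburst cells and from 3.68 to 7.20 in Arc cells, a difference of -2.02 ± 0.37 (SE) at adjusted p = 0.00626. Snap25 and Vamp4 also rose by less in starburst cells, with differences of -1.29 ± 0.27 and -1.09 ± 0.24 (SE) at adjusted p = 0.0143 and 0.0185. Rab3b fell in starburst cells from a level that Arc cells did not have, a difference of -1.61 ± 0.29 (SE). The starburst means of Syt9 and Syt7 were above background at P3 and at background at P18, but neither fall was called. Syt9 had -0.23 at adjusted p = 0.604 and Syt7 had -0.67 at adjusted p = 0.0611 in starburst P18 against P3. At P18 Syt9 was at 4.10, 3.43 and 4.19, around the background of 3.92. With background in place of the P18 means, their mean changes were at least 2.00 and at least 1.15 below those of Arc cells. These bounds come from group means and leave out their error. Syt10 was also called, but its starburst change was not measured, since it was at background on both days. Sncb had 1.07 ± 0.25 (SE) at adjusted p = 0.0241. Cplx2, Rab3b, Rims1, Snap25 and Synpr kept their call under every alternative run, and the other 5 lost it under at least 1.

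The same 12 arrays compared the cell types at each age. At P3, 8 of the 71 genes were higher in starburst than in Arc cells (11.3%, against 5.13% of all genes) and 7 were lower (9.86% against 5.66%). At P18, 8 were higher (11.3% against 9.69%) and 16 were lower (22.5% against 11%). By at least 2-fold, 3 were higher and 5 lower at P3, against 1.59% and 2.06% of all genes, and 4 were higher and 8 lower at P18, against 2.36% and 3.74%. The median difference of the 71 genes was -0.02 at P3 and -0.05 at P18, whereas that of all genes was 0.07 and 0.10. With each array centred on its own median the counts were 4 higher and 9 lower at P3 and 4 higher and 22 lower at P18. Only 8 of the 15 calls at P3 and 14 of the 24 at P18 held under every alternative run. The largest differences at P18 were in Syt7, Syt10, Unc13c and Syt9, genes above background in Arc cells whose starburst means were at background. Stxbp2 was above background in starburst cells and at background in Arc cells, whereas Rims1 and Cplx2 were above background in both and higher in starburst cells.

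Syt7 had 3.90, 4.02 and 4.44 in starburst cells at P3 and 3.40, 3.33 and 3.62 at P18, against means of 6.57 ± 0.58 (SD, n = 3) in Arc cells of P2 to P4 and 7.51 ± 0.16 (SD, n = 3) of P17 to P19. The difference of starburst minus Arc was -2.45 ± 0.24 (SE) at P3, at adjusted p = 1.67e-05, and at P18 Arc cells stood at least 3.59 above the starburst background, at adjusted p = 6.48e-08. Syt10 was at background in all 6 starburst arrays, with 2.97 to 3.80, against 5.18 ± 0.74 (SD, n = 3) and 6.84 ± 0.25 (SD, n = 3) in Arc cells. Its difference was at least 1.27 at P3 and at least 2.92 at P18, at adjusted p = 0.00195 and 2.51e-06. Unc13c was likewise at 3.06 to 3.57 in starburst arrays, at least 1.33 below Arc cells at P3 and at least 2.63 below at P18, at adjusted p = 0.00534 and 3.73e-05. These 3 genes did not overlap between the cell types at either age. Syt9 did not differ at P3, with -0.26 ± 0.19 (SE) at adjusted p = 0.401, and at P18 Arc cells were at least 2.26 higher, at adjusted p = 1.4e-06. Syt5 was lower in starburst cells at P3, by at least 1.17, and its difference of -0.34 at P18 did not pass.

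Several release genes were higher in starburst cells. Stxbp2, Munc18-2, a syntaxin partner best known from secretion in blood and epithelial cells, had 4.86, 5.05 and 5.17 at P3 and 5.15, 5.23 and 4.97 at P18 in starburst cells and was at background in Arc cells. The starburst means stood at least 1.55 and at least 1.64 above Arc background, at adjusted p = 4.89e-05 and 7.41e-06. Rims1 had 5.58, 5.91 and 5.76 at P3 and 6.31, 6.68 and 6.75 at P18, and was higher in starburst cells by 0.62 ± 0.15 (SE) at P3 and 1.91 ± 0.15 (SE) at P18, at adjusted p = 0.016 and 7.47e-07. Rab3b was higher by 2.05 ± 0.20 (SE) at P3, at adjusted p = 1.62e-05, and its difference of 0.44 at P18 did not pass. Cplx2 did not differ at P3, at 4.85 against 4.84, and was higher by 1.65 ± 0.22 (SE) at P18, at adjusted p = 0.000134. Stx7, a syntaxin of late endosomes, was higher at both ages, by 0.95 and 0.88, and Bsn by 0.51 at each.

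**Figure D4:**
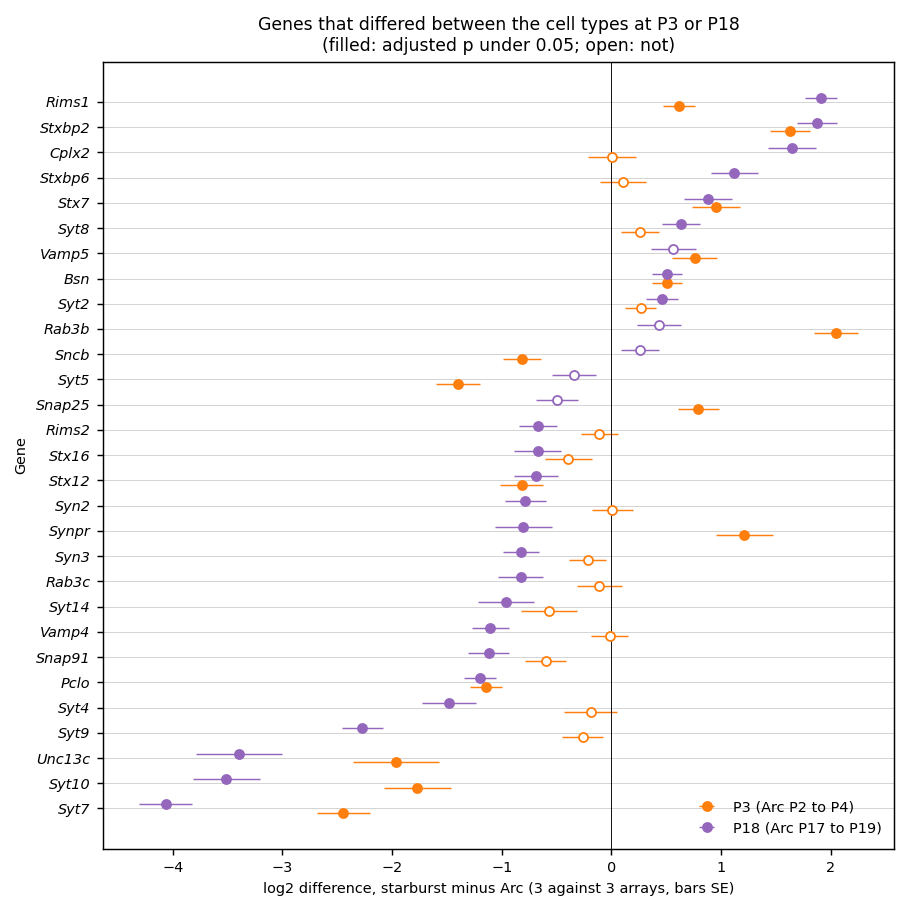
Log2 difference of starburst minus Arc cells at P3 (orange, Arc P2 to P4) and P18 (purple, Arc P17 to P19) for the 29 genes called at either age, with bars for the SE of 3 against 3 arrays; filled points passed an adjusted p of 0.05 and open ones did not. Syt7, Syt10 and Unc13c lie far to the left at both ages, Stxbp2 and Rims1 to the right at both, and Synpr and Snap25 lie right of 0 at P3 and left of 0 at P18, the P18 point of Snap25 open.

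Other genes were lower in starburst cells. Pclo was lower by about the same amount at both ages, with -1.14 ± 0.15 (SE) at P3 and -1.20 ± 0.15 (SE) at P18. Synpr was higher at P3 by 1.21 ± 0.26 (SE) and lower at P18, with a difference of -0.80 ± 0.26 (SE), at adjusted p = 0.0092 and 0.0456. Snap25 was higher at P3 by 0.79 ± 0.19 (SE), and its difference of -0.50 at P18 did not pass. At P18 Syt4 (-1.48), Snap91 (-1.12), Vamp4 (-1.10), Syn3 (-0.82) and Syn2 (-0.78) were also lower, and none of these 5 passed at P3. Syp, Vamp2, Syt1 and Sv2a, core vesicle proteins, had differences between -0.03 and 0.07 at P18, with SE between 0.14 and 0.26, and none passed.

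Other genes of release and vesicle recycling were counted for comparison. Of 58 such measured genes, which cover clathrin, endophilin, dynamin, the vesicle proton pump, calcium channels and transmitter transporters, 32 were higher with age in Arc cells (55.2%, against 14.7% of all genes) and 2 lower (3.45% against 23%), with a median of 0.50. In starburst cells 21 were higher (36.2% against 4.76%) and 2 lower (3.45% against 3.89%), with a median of 0.40. Dnm1, the dynamin of vesicle recycling, rose by 2.64 in Arc and was higher by 1.97 in starburst cells, and Sh3gl2, endophilin A1, by 2.35 and 2.01. Napb, the partner of Nsf in taking SNARE complexes apart, rose by 2.26 ± 0.21 (SE) in Arc cells and had 0.56 ± 0.22 (SE) in starburst cells, which did not pass. Apba1, the adaptor Mint1 that binds Munc18, was higher at P18 by 2.56 in starburst cells and had 0.42 in Arc cells, which did not pass. Between the cell types at P18, 8 of the 58 were higher (13.8% against 9.69%) and 17 lower (29.3% against 11%) in starburst cells. Slc18a3 had the largest measured difference (5.10), with Arc cells at background. Among the other higher ones were Apba1 (3.70), Rph3a, a Rab3 effector (3.05), and Cacna1a, the P/Q-type calcium channel (1.39). The largest differences among the lower ones were those of Cask (-1.37), Napb (-1.29) and Cacna2d2 (-1.25).

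Markers of other retinal cells moved with age in the same arrays. In Arc cells 6 of 7 measured rod genes rose (85.7%, against 14.7% of all genes). Their summed linear level went from 54 to 76 at P1 to P6 to 131 to 251 at P14 to P20. In starburst cells 2 of the 7 were called higher at P18 (28.6% against 4.76%), and the sum went from 64 to 68 at P3 to 136 to 187 at P18. Above background were 4 of the 7 in Arc arrays of P14 to P20 and 3 in starburst arrays of P18. Gnat1, rod transducin, lay between 2.66 and 3.64 to P9, at 4.93 at P10 and between 6.09 and 7.30 at P14 to P20, while the rod genes Nrl and Rom1 and all 8 cone genes were at background in every group. Cplx4 and Sv2b, release genes of ribbon synapses among the 71, were at background in every group. Slc17a7, a transmitter transporter among the other release genes, was at background at P1 to P6 and in starburst cells at P3. It was above background in later Arc arrays and in starburst cells at P18. Its change was 0.59 in Arc cells (adjusted p = 0.000454) and 0.42 in starburst cells, which did not pass. Of the 4 measured genes of the ribbon list, Cabp4 and Cacna1f were at background in every group, whereas Unc119 and Rims2, itself 1 of the 71, were above background in every group. In Arc cells 1 of the 4 rose, and their summed level went from 109 to 152 at P1 to P6 to 146 to 171 at P14 to P20. The summed level of 9 bipolar genes went from 85 to 137 to 191 to 343 in Arc arrays, with 7 or 8 of the 9 at background in each Arc window. Of these 9 genes 1 was called higher with age and 3 lower, with a median change of -0.25. Over the same days the summed level of 7 Müller glia genes went from 70 to 87 to 108 to 178, with 2 of them called higher and 2 lower. That of 8 ganglion cell genes, among them Sncg of the 71, went from 106 to 144 to 175 to 295, with 2 called higher and 3 lower and 7 of the 8 above background in each window. In starburst arrays of P3 and P18 the sums were 81 to 106 and 74 to 103 for Müller glia and 120 to 127 and 138 to 159 for ganglion cells. Those of the 9 bipolar genes were 600 to 735 and 473 to 491 in starburst arrays, above every Arc window. The 9 include Isl1, also listed as a starburst marker, which was above background in starburst cells on both days. The part of these cells in the changes of the 71 genes was not tested.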

How the data were processed

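The log2 values were deposited by the authors as 1 table of all 28 arrays, with RMA, R 2.11.1 and genome build mm8 named, per the submitters' processing notes. RMA corrects background, scales the arrays to each other and summarises each gene's probes. The base of the logarithm, any filter and any batch correction are not given in the sources used here, and base 2 is RMA's convention. The series speaks of triplicates, but 1 Arc column stands for each day, so whether an Arc value is 1 sample or a mean is open. The labels call the starburst replicates biological, with 1 retina a sample, and do not say whether the retinas came from different animals.

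Of 15170 rows, 13720 had 1 symbol, and 102 genes with several rows kept the row with the highest mean, which left 13617 genes. No low value was removed. Depth has no meaning here, and the number of arrays limits the precision. Linear models were fitted with limma 3.58.1 (R 4.3.3) and moderated with an intensity trend, and two-sided p-values were adjusted by Benjamini-Hochberg across all 13617 genes, with a threshold of 0.05. The Arc series was fitted as a line in days over 21 arrays, given as the fitted change from P1 to P20. Starburst P18 against P3 used 6 arrays. Cell types and the difference of their changes were compared in 1 fit of 12 arrays, with Arc P2 to P4 and P17 to P19 standing in for replicates. Where 1 group mean of a called difference was at background, the report gives it as at least the other mean minus background, and where both were, as no fold. For the difference of the changes, background stands in for such a starburst mean. The procedure was tested on simulated data. For starburst P18 against P3 it recovered 2.99% of changes of 0.5 and 37.3% of changes of 1 on the log2 scale. Along the Arc series it recovered 62.7% and 95.5%, and for the difference of the changes 4.48% and 55.2%. Same-numbered starburst arrays of P3 and P18 did not deviate together (r between -0.0443 and 0.0455 over genes), so numbers were not used as pairs.

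Any member could be named, with errors and adjusted p for up to 12 of the highest and 12 of the lowest called changes of a comparison and both ends of a family. The members, lists and tests were chosen with earlier results of these data known, and the background set after the values were seen. Promoters come from RefSeq (GRCm38.p6) and carry no measured values.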

Additional observations from a re-analysis of the deposited data

Results flagged for a closer look

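For 10 of the 71 genes the change between the early and late days differed between starburst and Arc cells by the test of that difference. A more positive change in starburst cells was found for Cplx2 (difference of the changes 1.65 on the log2 scale, adjusted p = 0.00721), Rims1 (1.30, adjusted p = 0.0024) and Sncb (1.07, adjusted p = 0.0241). A more negative change was found for Synpr (-2.02, adjusted p = 0.00626), Syt9 (-2.01, adjusted p = 0.000527), Syt10 (-1.74, adjusted p = 0.0373), Syt7 (-1.62, adjusted p = 0.0164), Rab3b (-1.61, adjusted p = 0.00513), Snap25 (-1.29, adjusted p = 0.0143) and Vamp4 (-1.09, adjusted p = 0.0185). Each rests on 3 starburst arrays a day and on Arc arrays of neighbouring days. The starburst means of Syt10 were at background on both days, so its starburst change was not measured. Those of Syt7 and Syt9 were at background at P18, and neither starburst fall was called. With background in place of these means, the differences were at least 1.15 and at least 2.00, leaving out the error of the means.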

How the results depend on the processing

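The counts are of the 71 genes. Leaving out 1 array at a time gave 30 to 34 higher and 9 to 11 lower along the Arc series, 12 to 13 higher and 2 to 4 lower in starburst P18 against P3 (4 lower without the P3 replicate 2), 3 to 9 higher and 6 to 9 lower in starburst against Arc at P3 (3 higher without the starburst P3 replicate 2), 5 to 9 higher and 11 to 18 lower at P18 (5 higher without the Arc array of P18 or of P19), and 2 to 4 higher and 4 to 10 lower in the difference of the changes (4 lower without the Arc array of P19). With each array centred on its median, 5 were lower along the Arc series, 4 were higher at P3 and 4 were higher at P18. In starburst P18 against P3, 4 were lower among genes above the median mean and 5 with all 28 arrays in the fit. With Arc P1 to P5 and P16 to P20, 14 were higher at P18. With P1 to P16 alone, 3 were lower and 25 higher along the Arc series. With P1 to P9 alone, a range chosen after seeing the data, limma called 0 higher and 0 lower, while 16 and 3 passed an unadjusted p of 0.05, and over all genes it called 3 and 2. There the slope, expressed over P1 to P20, changed sign for Bsn (-0.30), Rims1 (0.79), Stx16 (-0.21), Syngr3 (-0.23), Syt16 (1.09), Syt2 (0.0252), Syt9 (-0.95), Unc13a (-0.30), Vamp2 (-0.0594) and Vamp5 (0.45). With P3 to P20 alone, also chosen after seeing the data, 31 were higher and 8 lower. Of 44 calls along the Arc series 28 held under every alternative named before those 2 ranges, as did 13 of 20 in starburst P18 against P3, 8 of 15 at P3, 14 of 24 at P18 and 5 of 10 in the difference of the changes. With the replicate block, starburst P18 against P3 had 16 higher and 2 lower, Rab3a and Vamp2 losing their call, and no other call changed. The lowest of the Vamp5 rows reversed its difference at P3, to -0.0697. The causes were not tested. Values near background limit the size of differences for Syt7, Syt10, Unc13c, Syt9 and Stxbp2.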
